A study of Mus musculus with 12 samples.

Results

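The 8 genes S100a8, S100a9, Csf3r, Cxcr2, Retnlg, Il1b, Il1r2 and Lcn2, which mark neutrophils or their inflammatory output, were followed in RNA sequencing libraries of mouse heart. They were taken by name from a deposited table of 34714 genes, and all 8 were in it. They were selected on their measured levels in these same libraries, from earlier results of the comparisons between the groups, so the differences of these 8 genes between groups are given as a description and carry no p-value.

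Neutrophils are short-lived white blood cells that leave the bone marrow under granulocyte colony-stimulating factor, follow chemokines into inflamed tissue and release stored antimicrobial proteins. Their cytosol is rich in S100a8 and S100a9, which pair as calprotectin and, once outside the cell, act as alarmins, that is, danger signals read by Toll-like receptors on other cells. Interleukin 1 beta is made as a precursor by activated myeloid cells, is released after cleavage by inflammasomes, and drives endothelium and stroma to recruit more leukocytes. In the heart these signals are best known from the early response to injury.

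The study compared hearts of mice from a melanoma model in which an antibody against the checkpoint receptor PD-1 is used to cause cardiac toxicity, and asked whether leflunomide protects from it. Leflunomide is an immunosuppressant whose active metabolite inhibits dihydroorotate dehydrogenase, an enzyme of pyrimidine synthesis. The aPD1_lef group (4 libraries) received the antibody with leflunomide, the aPD1_veh group (4 libraries) received the antibody with what is read here as the drug's vehicle, and the IgG_lef group (3 libraries analysed) received control immunoglobulin with leflunomide. A group given control immunoglobulin with vehicle was not analysed here. Between aPD1_veh and IgG_lef both antibody and drug change, and their effects cannot be told apart. The labels and the study's description name no strain, sex, age, dose or time, nor say whether each library is its own animal, so that p-values measure only the spread between these libraries, which may be technical. Each comparison shares a group with the next.

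Values are treated as FPKM, fragments scaled to transcript length and to the mapped fragments of the library, which allows levels of different genes to be compared per length. Summed values per library ran between 393494 and 413010 in aPD1_lef, between 441935 and 465511 in aPD1_veh and between 413628 and 440748 in IgG_lef, and read depth is unknown. Replicate 4 of aPD1_lef stood apart, with a correlation across genes of 0.910 to 0.950 with its own group, and its summed cardiac muscle markers were 8137 FPKM, against 16496 to 23538 FPKM in the other aPD1_lef libraries. Results are therefore also given without it. The atrial gene Myl7 was at 32.5 and 43.0 FPKM in replicates 1 and 2 of aPD1_lef and at 266 FPKM in replicate 2 of IgG_lef, and at most 1.78 FPKM elsewhere. Differences without these 3 libraries are therefore also given for those of the 8 genes that were tested. Changes in the calls of pathway genes named below are given as well.

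The promoters of S100a8, S100a9 and Il1b are shown because these genes had the largest ratios between aPD1_veh and IgG_lef hearts and differ in which short motifs they hold. The sequences are RefSeq windows on GRCm38.p6, from 250 bases before to 50 after a start point, on the gene's strand: chr3:90668821-90669120 (plus strand), chr3:90695672-90695971 (minus strand) and chr2:129371090-129371389 (minus strand). For Il1b, Csf3r and Il1r2 the start point lies inside the gene coordinates given below, not at their outer end. Distances are counted from the start point. Capitals mark matches on either strand to 4 motifs. The core of C/EBP sites was searched as TTNNGNAA, and NF-kB sites by their consensus. Sites for PU.1, an Ets factor, were searched as GAGGAA only, so other forms of PU.1 or Ets sites were not covered. Promoters were also searched, after the sequences were seen, for a TATA box, TATAAA.
S100a8: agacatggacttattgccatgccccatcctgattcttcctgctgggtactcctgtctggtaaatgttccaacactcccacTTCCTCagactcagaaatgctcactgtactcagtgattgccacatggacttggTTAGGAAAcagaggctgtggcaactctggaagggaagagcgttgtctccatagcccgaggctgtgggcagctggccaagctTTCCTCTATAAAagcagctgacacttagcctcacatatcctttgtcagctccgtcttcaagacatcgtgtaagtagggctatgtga
S100a9: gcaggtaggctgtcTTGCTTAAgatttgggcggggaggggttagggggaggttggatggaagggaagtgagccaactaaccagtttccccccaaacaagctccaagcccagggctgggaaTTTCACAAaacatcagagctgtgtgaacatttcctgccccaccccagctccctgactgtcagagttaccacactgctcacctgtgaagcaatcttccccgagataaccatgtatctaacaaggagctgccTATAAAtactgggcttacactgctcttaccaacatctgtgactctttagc
Il1b: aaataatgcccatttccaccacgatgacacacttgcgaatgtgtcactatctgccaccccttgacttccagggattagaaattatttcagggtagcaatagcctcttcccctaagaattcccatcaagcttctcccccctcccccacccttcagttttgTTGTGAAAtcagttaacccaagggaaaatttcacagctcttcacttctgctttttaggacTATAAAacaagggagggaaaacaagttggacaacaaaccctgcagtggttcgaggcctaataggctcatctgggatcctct

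All 3 windows held a C/EBP core and a TATA box, while GAGGAA appeared in S100a8 only, where the match nearest the start directly precedes the TATA box. The C/EBP match began 117 bases before the start point for S100a8, 236 and 130 bases before that for S100a9, and 91 bases before that for Il1b. The TATA box began 30 bases before the start point for S100a8 and 31 before that for Il1b, and at the first base of S100a9 as annotated. Over all 8 genes, the C/EBP core was found in 5, GAGGAA in 4, the TATA box in 3 and the NF-kB motif in 0 windows. Of 27025 mouse promoter windows of the same length, 40.7% held the C/EBP core, 28.3% GAGGAA, 14.2% the TATA box and 0.385% the NF-kB motif. A match is a description of letters, and a missing match says only that these letters are not in the window.

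S100a8 and S100a9 lie 22.6 kb apart on chromosome 3 and had the highest mean FPKM of the 8 genes in aPD1_veh hearts. S100a8 (chr3:90669071-90670034) was at 0.935, 2.18, 1.73 and 19.1 FPKM in aPD1_lef, at 44.6, 21.3, 31.2 and 21.1 FPKM in aPD1_veh, and at 0.701, 2.29 and 4.99 FPKM in IgG_lef. Every aPD1_veh library was above every library of the other groups, with aPD1_lef replicate 4 (19.1 FPKM) just below the lowest of them (21.1 FPKM). The log2 difference of FPKM + 1 was -2.77 ± 0.66 (SE) for aPD1_lef against aPD1_veh, and -3.51 without aPD1_lef replicate 4. For aPD1_veh against IgG_lef it was 3.18 ± 0.71, and for aPD1_lef against IgG_lef 0.41 ± 0.71, or -0.33 without aPD1_lef replicate 4.

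S100a9 (chr3:90692630-90695721) encodes the partner chain of calprotectin. Its values were 1.46, 1.59, 1.32 and 24.0 FPKM in aPD1_lef, 48.8, 20.9, 30.1 and 24.9 FPKM in aPD1_veh, and 1.79, 1.28 and 4.45 FPKM in IgG_lef. Here aPD1_lef replicate 4 lay inside the aPD1_veh range, so those groups overlapped, while aPD1_veh and IgG_lef did not. The group means were 7.09 ± 11.3 FPKM in aPD1_lef (SD, n = 4), 31.2 ± 12.3 FPKM in aPD1_veh (SD, n = 4) and 2.51 ± 1.70 FPKM in IgG_lef (SD, n = 3). The log2 difference was -2.80 ± 0.68 (SE) for aPD1_lef against aPD1_veh and -3.64 without aPD1_lef replicate 4, and it was 3.23 ± 0.74 for aPD1_veh against IgG_lef. For aPD1_lef against IgG_lef the difference of 0.43 ± 0.74 turned to -0.41 without that replicate. The ratio of S100a8 to S100a9 stayed between 0.850 and 1.04 in aPD1_veh hearts, and ran between 0.642 and 1.37 in aPD1_lef and between 0.391 and 1.78 in IgG_lef.

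**Figure D1:**
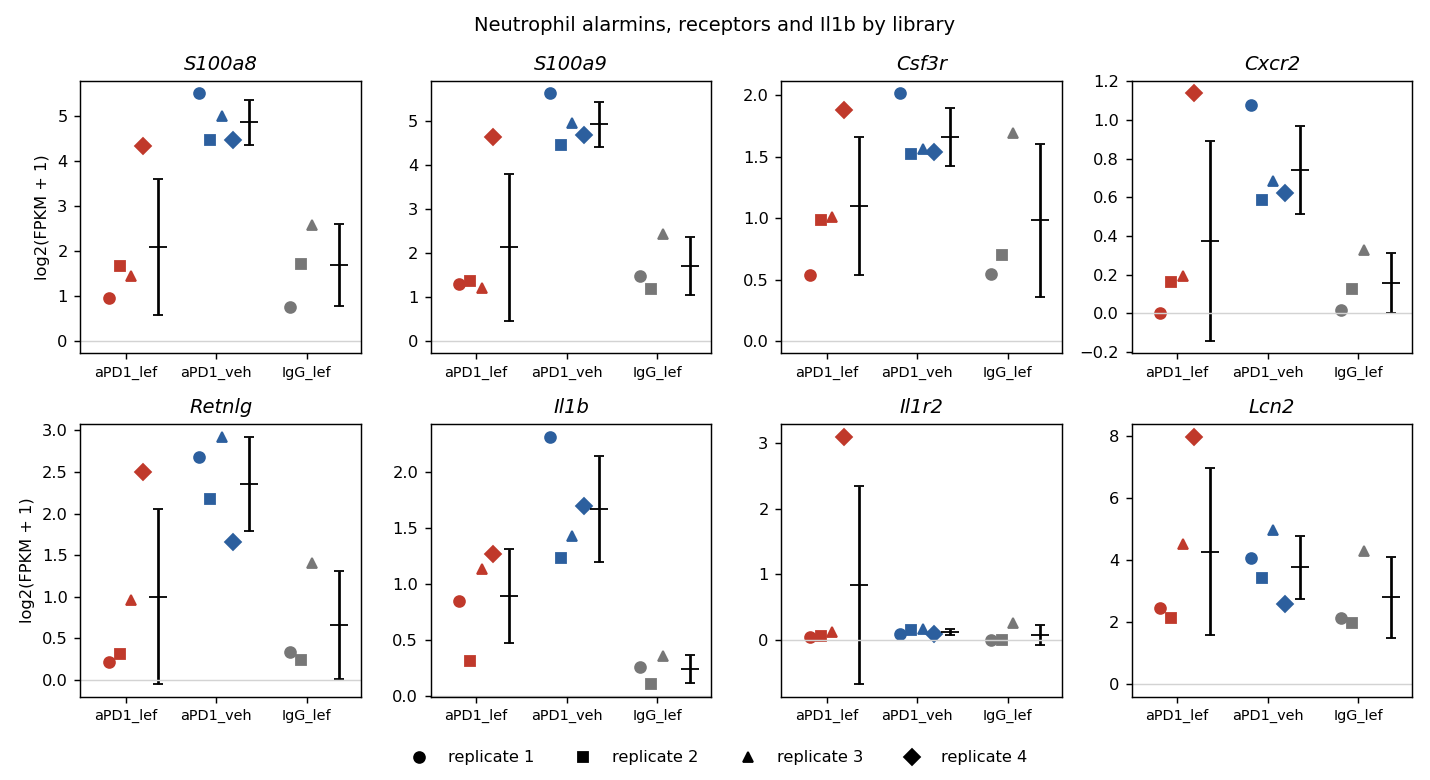
Log2(FPKM + 1) of the 8 genes in each of the 11 libraries (points, with shape for the replicate number), with the group mean and SD (bars); each panel has its own vertical scale. In aPD1_lef the highest point of each panel is replicate 4, and in IgG_lef it is replicate 3; S100a8 is the only panel in which all aPD1_veh points lie above all aPD1_lef points.

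The receptors came next in the list. Csf3r (chr4:126023441-126044975), the receptor for granulocyte colony-stimulating factor, was at 0.450, 0.976, 1.01 and 2.67 FPKM in aPD1_lef, at 3.04, 1.87, 1.96 and 1.90 FPKM in aPD1_veh, and at 0.460, 0.628 and 2.24 FPKM in IgG_lef. The 3 groups overlapped, through aPD1_lef replicate 4 and IgG_lef replicate 3. Its log2 difference was -0.56 ± 0.30 (SE) for aPD1_lef against aPD1_veh, 0.68 ± 0.33 for aPD1_veh against IgG_lef and 0.12 ± 0.33 for aPD1_lef against IgG_lef. Without aPD1_lef replicate 4 the first was -0.82 and the last -0.14.

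Cxcr2 (chr1:74153994-74161246) is the receptor by which neutrophils follow ELR chemokines such as Cxcl1 and Cxcl2. It was low throughout, at 0, 0.118, 0.143 and 1.20 FPKM in aPD1_lef, at 1.11, 0.502, 0.606 and 0.539 FPKM in aPD1_veh, and at 0.0125, 0.0893 and 0.255 FPKM in IgG_lef. All aPD1_veh libraries were above all IgG_lef libraries and above replicates 1 to 3 of aPD1_lef, but below aPD1_lef replicate 4. The means were 0.365 ± 0.560 FPKM in aPD1_lef, 0.690 ± 0.284 FPKM in aPD1_veh and 0.119 ± 0.124 FPKM in IgG_lef (SD, n = 4, 4 and 3). Without aPD1_lef replicate 4, the ratio of the aPD1_lef mean to the aPD1_veh mean moved to 0.126, against 0.529 with it.

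Retnlg (chr16:48872608-48874498) encodes resistin-like gamma, a small secreted protein that in mice is used as a marker of mature neutrophils. Values were 0.166, 0.246, 0.955 and 4.63 FPKM in aPD1_lef, 5.42, 3.52, 6.59 and 2.14 FPKM in aPD1_veh, and 0.263, 0.180 and 1.65 FPKM in IgG_lef. The aPD1_veh libraries lay above all IgG_lef libraries, and aPD1_lef replicate 4 exceeded replicates 2 and 4 of aPD1_veh. The log2 difference was -1.36 ± 0.49 (SE) for aPD1_lef against aPD1_veh, -1.86 without aPD1_lef replicate 4, and 1.70 ± 0.53 for aPD1_veh against IgG_lef. For aPD1_lef against IgG_lef it was 0.34 ± 0.53, and -0.16 without that replicate.

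Il1b (chr2:129364569-129371164), the cytokine of the list, had aPD1_lef values that ran across those of both other groups. It was at 0.794, 0.242, 1.20 and 1.41 FPKM in aPD1_lef, at 3.98, 1.35, 1.70 and 2.23 FPKM in aPD1_veh, and at 0.190, 0.0725 and 0.278 FPKM in IgG_lef. Every aPD1_veh library exceeded every IgG_lef library, and 3 of 4 aPD1_lef libraries did too, replicate 2 being the one inside the IgG_lef range. Between aPD1_lef and aPD1_veh only aPD1_lef replicate 4 reached the aPD1_veh range. The log2 differences were -0.78 ± 0.25 (SE) for aPD1_lef against aPD1_veh, 1.43 ± 0.27 for aPD1_veh against IgG_lef and 0.66 ± 0.27 for aPD1_lef against IgG_lef. Without aPD1_lef replicate 4 the first was -0.90 and the last 0.53, so for Il1b that library left each sign as it was. As a ratio of means Il1b was 5.06-fold higher in aPD1_lef than in IgG_lef and 4.13-fold higher without that library, where S100a8, S100a9, Csf3r, Cxcr2 and Retnlg then had ratios of 0.581 to 0.732.

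Il1r2 (chr1:40084692-40125230), the decoy receptor that binds interleukin 1 without signalling, was carried by a single library. It was at 0.0380, 0.0499, 0.0973 and 7.53 FPKM in aPD1_lef, at 0.0651, 0.118, 0.130 and 0.0696 FPKM in aPD1_veh, and listed at 0, 0 and 0.199 FPKM in IgG_lef. Replicate 4 of aPD1_lef stood 121.9-fold above the mean of the other aPD1_lef libraries, which lay among the aPD1_veh and IgG_lef values. The ratio of means for aPD1_lef against aPD1_veh was 20.1 with this library and 0.644 without it.

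Lcn2 (chr2:32384637-32387739) encodes lipocalin 2, an iron-siderophore binding protein of neutrophil granules that epithelium, macrophages and other cells also make in inflammation. Its values were 4.47, 3.34, 21.9 and 249.1 FPKM in aPD1_lef, 15.9, 9.63, 30.4 and 4.99 FPKM in aPD1_veh, and 3.41, 2.90 and 18.7 FPKM in IgG_lef. The groups overlapped in each comparison, and the spread within a group exceeded the differences between groups. For aPD1_lef against aPD1_veh the log2 difference was 0.50 ± 1.14 (SE), and it was -0.73 without aPD1_lef replicate 4. Leaving out the 3 libraries with Myl7 above 10 FPKM gave 2.48. The difference was 0.96 ± 1.23 for aPD1_veh against IgG_lef and 1.46 ± 1.23 for aPD1_lef against IgG_lef. Without aPD1_lef replicate 4 the last was 0.23, and without IgG_lef replicate 3 they were 1.71 and 2.21.

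Across the 8 genes the libraries, and not only the groups, had an order. All 8 genes had their highest aPD1_lef value in replicate 4 and their highest IgG_lef value in replicate 3, while in aPD1_veh 5 were highest in replicate 1 and 3 in replicate 3. The value in aPD1_lef replicate 4 was between 1.90 times (Il1b) and 121.9 times (Il1r2) the mean of replicates 1 to 3, and 11.8 times for S100a8. In aPD1_lef, 0 genes in replicate 1, 0 in replicate 2, 2 in replicate 3 and 7 in replicate 4 reached the lowest aPD1_veh value. The mean of aPD1_lef therefore stands for no single library of that group.

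Leaving out the 3 libraries with Myl7 above 10 FPKM leaves 2 libraries each in aPD1_lef, replicate 4 among them, and in IgG_lef. For aPD1_lef against aPD1_veh the log2 difference was then -1.98 for S100a8, -2.01 for S100a9, -0.22 for Csf3r, -0.63 for Retnlg and -0.46 for Il1b. For aPD1_lef against IgG_lef it was 1.21 for S100a8, 0.96 for S100a9, 0.32 for Csf3r, 0.86 for Retnlg, 0.90 for Il1b and 3.02 for Lcn2. Between aPD1_veh and IgG_lef the same step gave 3.19 for S100a8, 2.97 for S100a9, 0.54 for Csf3r, 1.49 for Retnlg, 1.36 for Il1b and 0.54 for Lcn2. Without IgG_lef replicate 3, aPD1_lef against IgG_lef gave 0.86 for S100a8, 0.80 for S100a9, 0.48 for Csf3r, 0.71 for Retnlg and 0.71 for Il1b, and aPD1_veh against IgG_lef gave 3.62, 3.60, 1.04, 2.07 and 1.49 for the same genes.

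**Figure D2:**
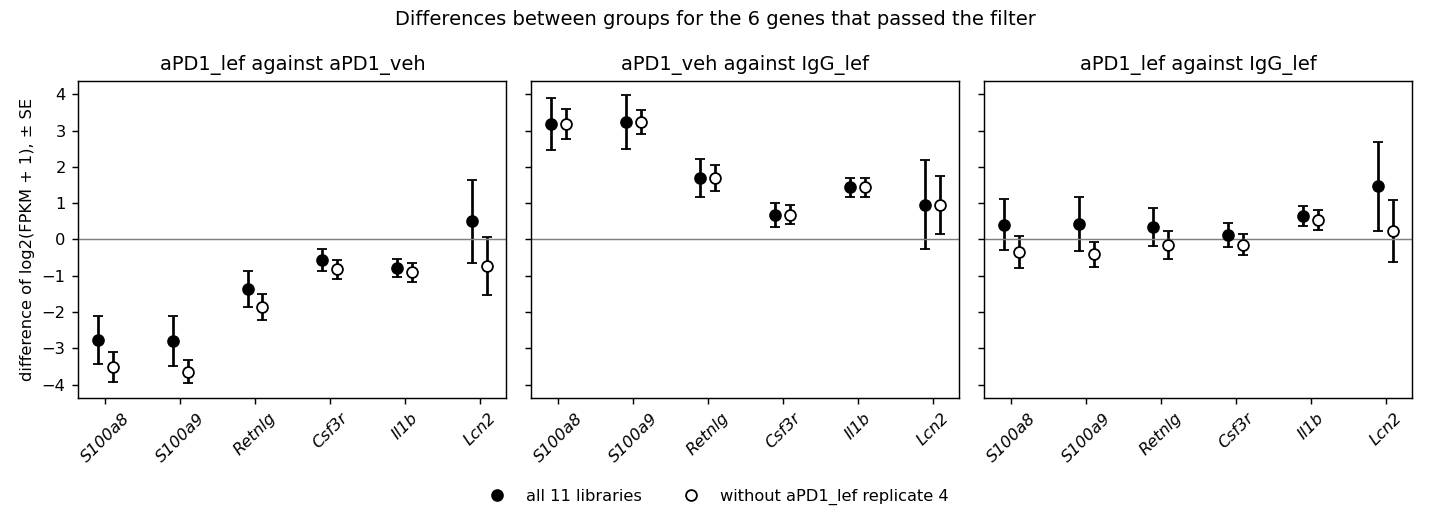
Differences of log2(FPKM + 1) between groups, ± SE from the fit over all genes, for the 6 genes that passed the filter, with all 11 libraries (filled) and without aPD1_lef replicate 4 (open). For aPD1_lef against aPD1_veh, leaving out that library moved S100a8 to -3.51, with -2.77 before, and turned Lcn2 to -0.73, with 0.50 before.

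Of the 8 genes, 6 passed the filter of 1 FPKM in at least 4 libraries and entered the fit over all 12005 genes, and Cxcr2 and Il1r2 did not. For aPD1_lef against aPD1_veh, 3 of 6 were lower past an adjusted p of 0.05 (S100a8, S100a9 and Il1b), where 32.4% of all genes tested were called, 18.2% higher and 14.3% lower (limma, Benjamini-Hochberg). For aPD1_veh against IgG_lef, 1 of 6 was higher (Il1b), where 1.17% of all genes were called, 0.242% higher and 0.925% lower. For aPD1_lef against IgG_lef, 0 of 6 were called by limma, with 1 at an unadjusted p under 0.05, where 7.16% of all genes were called, 5.15% higher and 2.01% lower. The genes were chosen with these contrasts known, so nothing is read from these counts. Leaving out aPD1_lef replicate 4 gave a first count of 5 of 6, and leaving out the 3 libraries with Myl7 above 10 FPKM gave 0 of 6, with 3 at an unadjusted p under 0.05.

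By overlap of the values, 1 of 8 genes (S100a8) was lower in all aPD1_lef libraries than in all aPD1_veh libraries, where 15.5% of all genes tested were and 20.6% were higher. In aPD1_veh against IgG_lef, 5 of 8 (S100a8, S100a9, Cxcr2, Retnlg and Il1b) were higher without overlap, where 11.1% of all genes tested were and 7.91% were lower. None of the 8 was free of overlap in aPD1_lef against IgG_lef, where 15.3% of all genes tested were higher and 11.4% lower without overlap. The median log2 difference of the 6 genes was -1.07 for aPD1_lef against aPD1_veh, 1.57 for aPD1_veh against IgG_lef and 0.42 for aPD1_lef against IgG_lef, beside 0.04, 0.01 and 0.03 over all genes tested.

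The name neutrophil was checked against markers outside the list, of which Ly6g, Mpo, Elane and Cxcr1 were near or at 0. Ly6g, the classical surface marker of mouse neutrophils, was listed at 0 in all aPD1_lef libraries, at 0.285, 0.220, 0.469 and 0 FPKM in aPD1_veh, and at 0, 0 and 0.120 FPKM in IgG_lef. Mpo and Elane, enzymes of the primary granules that are transcribed in marrow precursors, were listed at 0 in all aPD1_lef and aPD1_veh libraries, and in IgG_lef only replicate 3 had a value, of 0.067 FPKM for Mpo and 0.144 FPKM for Elane. Cxcr1 was listed at 0 in every aPD1_lef and IgG_lef library and reached at most 0.102 FPKM in aPD1_veh. Other neutrophil genes did have values, among them Mmp8 below. Retnlg and Cxcr2 above did too, but they belong to the list and are no outside check. Stfa2l1, named after its values were seen, was at 0, 0, 0.142 and 1.47 FPKM in aPD1_lef, at 0.913, 0.175, 0.604 and 0.828 FPKM in aPD1_veh, and at 0 in all IgG_lef libraries. S100a8 and S100a9 can also be expressed by monocytes and other cells, and the presence of neutrophils was not tested. In whole tissue, fewer cells of a type and less RNA per cell cannot be told apart.

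Of the neutrophil granule proteins, 3 of 13 listed genes could be tested. Beside 14.3% of all genes tested, 1 of these fell in aPD1_lef against aPD1_veh. That gene was Mmp9, a gelatinase of the tertiary granules, at 0.0319, 0.0687, 0.137 and 0.589 FPKM in aPD1_lef, 1.21, 1.15, 1.25 and 1.19 FPKM in aPD1_veh, and 0.124, 0.310 and 0.411 FPKM in IgG_lef. The aPD1_veh libraries stood above all the others with little spread. Mmp9 fell by 0.89 ± 0.14 (SE) on the log2 scale in aPD1_lef against aPD1_veh (limma, Benjamini-Hochberg adjusted p = 0.00184). It was higher by 0.79 ± 0.15 in aPD1_veh than in IgG_lef (limma adjusted p = 0.0334), a call lost without aPD1_lef replicate 3 or any IgG_lef replicate (adjusted p 0.057 to 0.13 with limma). The call was also lost with a pseudocount of 0.1 (limma adjusted p = 0.163), a replicate block (0.113) and every library scaled to one total (0.0551). Leaving out the libraries with Myl7 above 10 FPKM ended it too (0.0784). Since Mmp9 passed the filter through aPD1_veh alone, it was bound to differ if kept; with no filter the limma adjusted p was 0.00315 for aPD1_lef against aPD1_veh and 0.0535 for aPD1_veh against IgG_lef.

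The secondary granule genes were too low to test. Mmp8, neutrophil collagenase, was at 0.021, 0.0793, 0.0337 and 1.11 FPKM in aPD1_lef, at 0.738, 0.321, 1.20 and 0.403 FPKM in aPD1_veh, and at 0.0279, 0 and 0.280 FPKM in IgG_lef, with aPD1_lef replicate 4 inside the aPD1_veh range. Ngp, Camp and Ltf, which encode granule antimicrobial proteins, were highest in aPD1_veh replicate 1, at 1.78, 0.889 and 0.440 FPKM. For each of them IgG_lef replicate 3 came next, at 0.734, 0.630 and 0.276 FPKM, above the other aPD1_veh libraries. Summed over the 13 genes, granule proteins ran between 0.946 and 22.0 FPKM in aPD1_lef, between 5.17 and 8.95 FPKM in aPD1_veh and between 0.956 and 6.64 FPKM in IgG_lef. The highest sum, in aPD1_lef replicate 4, was mostly Chil3, at 16.7 FPKM there and at most 1.82 FPKM in aPD1_veh and 2.74 FPKM in IgG_lef.

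Of 17 surface and cytosol markers, 6 could be tested. Beside 14.3% of all genes tested, 1 of these fell in aPD1_lef against aPD1_veh. This was Wfdc21, a small secreted protein of the whey acidic family, at 0, 0.286, 0 and 0.527 FPKM in aPD1_lef, 1.60, 1.49, 1.07 and 1.05 FPKM in aPD1_veh, and listed at 0 in all 3 IgG_lef libraries. It fell by 0.95 ± 0.15 (SE) on the log2 scale (limma adjusted p = 0.00186, and 0.00326 with no filter, since it too passed the filter through aPD1_veh alone). It was higher in aPD1_veh than in IgG_lef, by 1.19 ± 0.16 (limma adjusted p = 0.00824, and 0.0190 with no filter). That call was lost without IgG_lef replicate 3 (limma adjusted p = 0.052) and with a replicate block (0.0654). Fpr1, a receptor for formylated bacterial peptides, and Cd177, a neutrophil surface protein, were each highest of aPD1_lef in replicate 4, at 0.842 and 0.227 FPKM. Padi4, which did not pass the filter, went the other way from Wfdc21. It was at 0.992, 0.769, 2.52 and 2.04 FPKM in aPD1_lef and, without overlap, at 0.435, 0.333, 0.115 and 0.222 FPKM in aPD1_veh. In 12 of the 17 markers the highest value of all libraries was that of aPD1_lef replicate 4, and the summed level ran between 13.1 and 64.0 FPKM in aPD1_lef, between 11.9 and 24.7 FPKM in aPD1_veh and between 10.3 and 31.4 FPKM in IgG_lef.

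**Figure D3:**
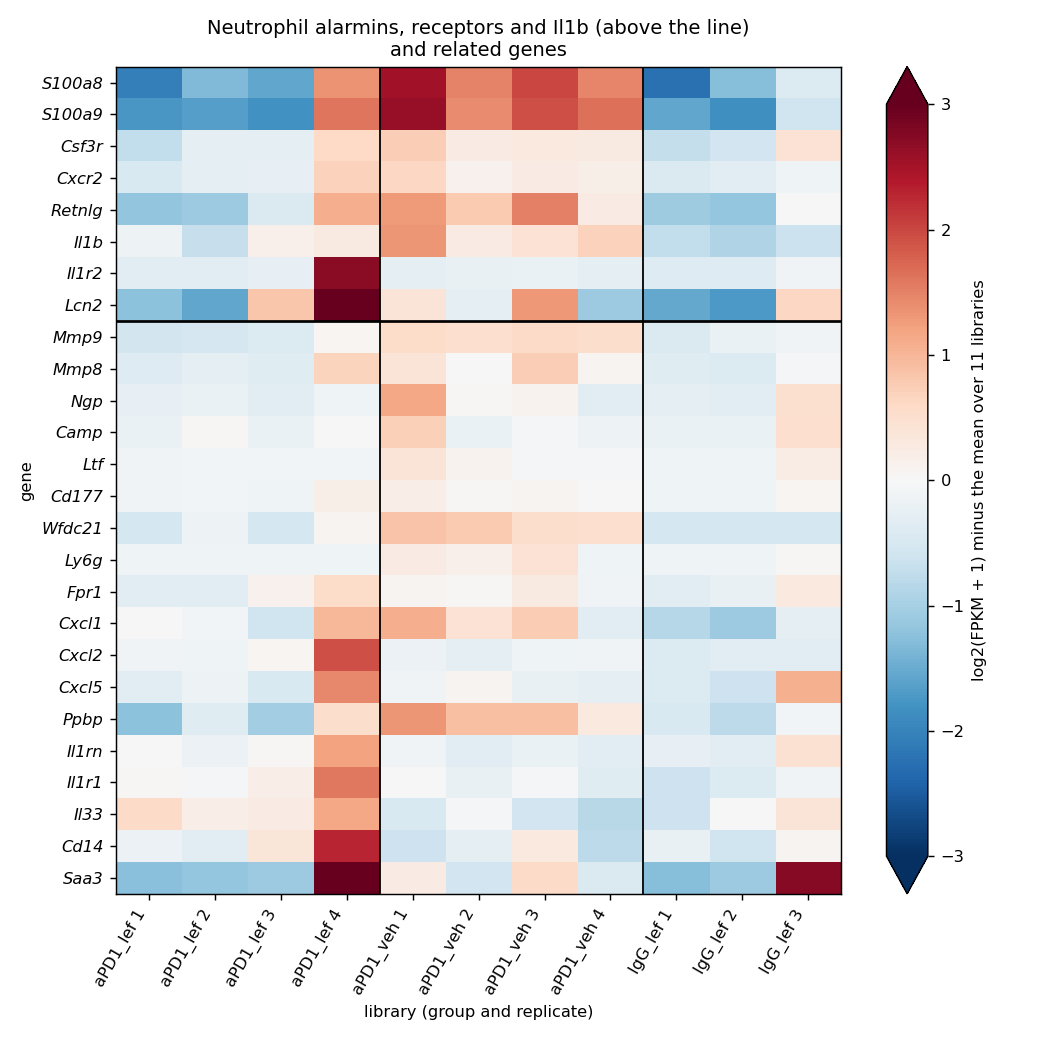
Log2(FPKM + 1) minus the gene's mean over 11 libraries, for the 8 genes (above the line) and related genes (below it), with libraries in columns by group and replicate; colours stop at 3 and -3. Mmp9, Wfdc21 and Ppbp are high across aPD1_veh, while Il1r2, Lcn2, Cxcl2, Il1rn, Cd14 and Saa3 are high in aPD1_lef replicate 4, and Saa3 also in IgG_lef replicate 3.

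The 6 subunits of the phagocyte NADPH oxidase, the enzyme of the respiratory burst, were all tested and 0 passed in each of the 3 comparisons (limma, with 0 at an unadjusted p under 0.05). Cybb, its catalytic subunit, is shared with macrophages and was at 5.94, 5.89, 6.90 and 10.1 FPKM in aPD1_lef, at 4.68, 5.16, 7.76 and 4.09 FPKM in aPD1_veh, and at 7.59, 5.31 and 17.6 FPKM in IgG_lef. The groups overlapped. Its log2 difference was 0.36 ± 0.31 (SE) for aPD1_lef against aPD1_veh (limma adjusted p = 0.388).

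Among the growth factors and chemoattractants that release and recruit neutrophils, 7 of 15 genes were tested. Of these, 1 rose and 2 fell in aPD1_lef against aPD1_veh, beside 18.2% and 14.3% of all genes tested. Cxcr4, the receptor that keeps neutrophils in the marrow and recalls aged ones, was higher in aPD1_lef, at 7.43 ± 2.06 FPKM, against 3.16 ± 0.843 FPKM in aPD1_veh (SD, n = 4 each; log2 difference 1.01 ± 0.17 SE, limma adjusted p = 0.00258). Its ligand Cxcl12, made by stromal cells, was lower in aPD1_lef, at 59.9 ± 8.70 FPKM, against 79.2 ± 3.96 FPKM in aPD1_veh (SD, n = 4 each; log2 difference -0.41 ± 0.10 SE, limma adjusted p = 0.0144). Ppbp, platelet basic protein, whose cleavage gives a Cxcr2 ligand, was lower in aPD1_lef at 0.706, 2.16, 0.943 and 4.83 FPKM, against 9.12, 6.59, 6.58 and 3.93 FPKM in aPD1_veh (log2 difference -1.39 ± 0.36 SE, limma adjusted p = 0.0164). The Ppbp call was lost without the libraries with Myl7 above 10 FPKM (limma adjusted p = 0.0719), and that of Cxcl12 with every library scaled to one total (limma adjusted p = 0.0542).

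Cxcl12 was the 1 gene of that list that passed in aPD1_veh against IgG_lef, at 79.2 ± 3.96 FPKM in aPD1_veh and 54.3 ± 1.17 FPKM in IgG_lef (SD, n = 4 and 3; limma adjusted p = 0.0482), and the call was lost in 15 alternatives, among them without aPD1_lef replicate 1 or 2, any aPD1_veh replicate or any IgG_lef replicate (limma adjusted p 0.0519 to 0.182). Of the ELR chemokines that Cxcr2 binds, Cxcl1 was at 1.89, 1.71, 0.901 and 4.74 FPKM in aPD1_lef, at 5.11, 2.92, 3.85 and 1.27 FPKM in aPD1_veh, and at 0.595, 0.349 and 1.37 FPKM in IgG_lef, and passed in no comparison (limma adjusted p = 0.412 for aPD1_lef against aPD1_veh and 0.232 for aPD1_veh against IgG_lef). Cxcl2 was at 0.301, 0.272, 0.446 and 4.34 FPKM in aPD1_lef and between 0.155 and 0.299 FPKM in aPD1_veh. Cxcl5 was high in 2 libraries, with 3.91 FPKM in aPD1_lef replicate 4 and 0.323 to 0.639 FPKM in the other aPD1_lef libraries, and with 2.76 FPKM in IgG_lef replicate 3 and 0.372 and 0.175 FPKM in replicates 1 and 2. Csf3, which encodes granulocyte colony-stimulating factor, was listed at 0 in all libraries but aPD1_lef replicate 4, at 0.159 FPKM.

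The endothelial adhesion molecules that hold leukocytes at the vessel wall gave 0 calls among 5 tested genes in each comparison (limma, with 1, 2 and 4 at an unadjusted p under 0.05 for aPD1_lef against aPD1_veh, aPD1_veh against IgG_lef and aPD1_lef against IgG_lef). Icam1, the ligand of neutrophil integrins, was at 10.7, 8.07, 11.7 and 18.7 FPKM in aPD1_lef, at 16.7, 14.7, 19.3 and 8.69 FPKM in aPD1_veh, and at 5.37, 5.33 and 7.20 FPKM in IgG_lef. Both anti-PD-1 groups lay above all IgG_lef libraries. For aPD1_veh against IgG_lef the log2 difference was 1.14 ± 0.28 (SE, limma adjusted p = 0.0976), which moved to an adjusted p of 0.0269 without aPD1_lef replicate 4. Sele, E-selectin, was at 1.65, 1.07, 2.68 and 1.79 FPKM in aPD1_lef and 1.68, 0.711, 0.873 and 0.601 FPKM in aPD1_veh (limma adjusted p = 0.093), and passed without aPD1_lef replicate 2 (0.0394) or aPD1_veh replicate 1 (0.0396).

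Of the 10 other genes of the interleukin 1 family in the table, 4 were tested. Of these, 2 rose in aPD1_lef against aPD1_veh and 0 fell, beside 18.2% of all genes tested that rose. Il33, a nuclear alarmin of stromal and endothelial cells, was at 8.93, 6.63, 6.90 and 13.9 FPKM in aPD1_lef, against 3.84, 5.36, 3.44 and 2.71 FPKM in aPD1_veh (log2 difference 1.03 ± 0.26 SE, limma adjusted p = 0.0149). Il1rap, the accessory chain that both the interleukin 1 and interleukin 33 receptors need, was at 2.54, 2.22, 2.23 and 4.20 FPKM in aPD1_lef, against 1.19, 1.37, 1.68 and 1.36 FPKM in aPD1_veh (log2 difference 0.64 ± 0.16 SE, limma adjusted p = 0.0149). For both genes the groups did not overlap.

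Il1r1, the signalling receptor for Il1b, was at 5.95, 5.45, 6.75 and 19.1 FPKM in aPD1_lef and 5.70, 4.76, 5.56 and 4.25 FPKM in aPD1_veh, and did not pass (limma adjusted p = 0.159), but passed without the 3 libraries with Myl7 above 10 FPKM (limma adjusted p = 0.0417). Il1rn, the receptor antagonist, was at 0.401, 0.226, 0.417 and 2.21 FPKM in aPD1_lef, at 0.278, 0.114, 0.203 and 0.097 FPKM in aPD1_veh, and at 0.163, 0.0943 and 0.902 FPKM in IgG_lef, with the highest value of aPD1_lef in replicate 4 and of IgG_lef in replicate 3. Il1a was at or below 0.0822 FPKM in every library. Il18 was at most 0.463 FPKM in aPD1_lef, at most 0.393 FPKM in aPD1_veh and at most 1.11 FPKM in IgG_lef. Il1rl1, the receptor for Il33, was at most 0.521 FPKM in aPD1_lef, 0.350 FPKM in aPD1_veh and 0.391 FPKM in IgG_lef. In aPD1_veh against IgG_lef and aPD1_lef against IgG_lef, 0 of the 4 tested genes passed (limma, with 1 and 2 at an unadjusted p under 0.05).

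The machinery that cleaves interleukin 1 gave 0 calls among 5 tested genes of 7 in each comparison (limma, with 0 at an unadjusted p under 0.05). Casp1, the protease that matures Il1b, was at 3.00, 3.13, 3.21 and 2.87 FPKM in aPD1_lef, at 3.52, 2.31, 3.67 and 1.82 FPKM in aPD1_veh, and at 4.78, 2.42 and 5.59 FPKM in IgG_lef (limma adjusted p = 0.705 for aPD1_lef against aPD1_veh). Nlrp3, the inflammasome sensor, was below the filter, at most 0.625 FPKM in aPD1_lef, 0.441 FPKM in aPD1_veh and 0.498 FPKM in IgG_lef.

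Of the receptors and adaptors that read alarmins and interleukin 1, 14 of 15 were tested. Beside 18.2% and 5.15% of all genes tested, 1 of these rose in aPD1_lef against aPD1_veh and against IgG_lef. It was Nfkb1, a subunit of NF-kB, at 18.1, 18.1, 18.4 and 19.3 FPKM in aPD1_lef, 12.6, 12.6, 12.97 and 12.6 FPKM in aPD1_veh, and 11.7, 13.7 and 15.6 FPKM in IgG_lef. The log2 difference was 0.51 ± 0.09 (SE) for aPD1_lef against aPD1_veh (limma adjusted p = 0.00233) and 0.42 ± 0.09 for aPD1_lef against IgG_lef (limma adjusted p = 0.0306). The second call was lost in 9 alternatives, among them without aPD1_lef replicate 1 or 3, aPD1_veh replicate 2 or IgG_lef replicate 1 or 2 (limma adjusted p 0.0530 to 0.151 over all 9).

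Tlr2 was at 4.25, 4.29, 5.05 and 4.32 FPKM in aPD1_lef and 2.39, 2.54, 4.25 and 1.83 FPKM in aPD1_veh, with an adjusted p of 0.0521 from limma for aPD1_lef against aPD1_veh. It passed in 6 alternatives, among them without aPD1_veh replicate 3 (limma adjusted p = 0.0199). Tlr4, the receptor best known to bind calprotectin, was at 4.91, 3.94, 4.95 and 4.00 FPKM in aPD1_lef and 3.85, 2.63, 4.41 and 2.59 FPKM in aPD1_veh (limma adjusted p = 0.114), and passed with every library scaled to one total (0.0431) and without aPD1_veh replicate 3 (0.0498). Cd14, the co-receptor of both, was at 6.80, 6.00, 10.4 and 42.0 FPKM in aPD1_lef and between 4.14 and 9.87 FPKM in aPD1_veh (limma adjusted p = 0.194, and 0.0316 without the 3 libraries with Myl7 above 10 FPKM). Ager, the receptor for advanced glycation end products, was at most 1.20 FPKM in aPD1_lef, 0.456 FPKM in aPD1_veh and 0.361 FPKM in IgG_lef.

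Other S100 genes, which many cell types express, were higher in aPD1_lef, where S100a8 and S100a9 were lower. Of 8 tested genes of 11 listed, 6 rose in aPD1_lef against aPD1_veh and 0 fell, beside 18.2% and 14.3% of all genes tested. The 8 had a median log2 difference of 0.63, beside 0.04 over all genes tested. S100a6, calcyclin, was at 117, 84.1, 186 and 209.6 FPKM in aPD1_lef and 57.4, 48.0, 43.6 and 39.0 FPKM in aPD1_veh (log2 difference 1.57 ± 0.28 SE, limma adjusted p = 0.00354). S100a4, also called fibroblast-specific protein, was at 25.4, 13.4, 30.7 and 41.8 FPKM in aPD1_lef and 10.5, 6.31, 7.98 and 8.09 FPKM in aPD1_veh (log2 difference 1.56 ± 0.38 SE, limma adjusted p = 0.0124).

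S100a11 rose by 1.26 ± 0.29 (SE), S100a10, the partner of annexin A2, by 0.75 ± 0.16, S100a13 by 0.51 ± 0.12 and S100a16 by 0.27 ± 0.08 on the log2 scale in aPD1_lef against aPD1_veh (limma adjusted p = 0.0102, 0.00717, 0.0125 and 0.0291). For these 6 genes the groups did not overlap. The S100a16 call was lost without aPD1_lef replicate 1 or 3 or aPD1_veh replicate 2, 3 or 4 (limma adjusted p 0.0599 to 0.0830) and under median-ratio scaling (0.0936). S100a1, the S100 protein of heart muscle, did not pass (549 to 807 FPKM in aPD1_lef, 782 to 858 FPKM in aPD1_veh; limma adjusted p = 0.248). In aPD1_lef against IgG_lef, S100a6, S100a13 and S100a16 were higher, by 1.17 ± 0.31, 0.52 ± 0.13 and 0.43 ± 0.09 (SE; limma adjusted p = 0.046, 0.0444 and 0.0244). Leaving out aPD1_lef replicate 1 or 3, or IgG_lef replicate 1 or 2, ended each of these calls, as did IgG_lef replicate 3 for S100a13 and S100a16, any aPD1_veh replicate for S100a6 and S100a13, and aPD1_lef replicate 4 for S100a6. Over all alternatives the lost calls had limma adjusted p of 0.0623 to 0.198 for S100a6, 0.0551 to 0.152 for S100a13 and 0.0556 to 0.140 for S100a16. S100a11 did not pass in aPD1_lef against IgG_lef (limma adjusted p = 0.0548), but passed in some alternatives, among them without the libraries with Myl7 above 10 FPKM (0.0129). In aPD1_veh against IgG_lef, 0 of 8 passed (limma, with 0 at an unadjusted p under 0.05).

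**Figure D4:**
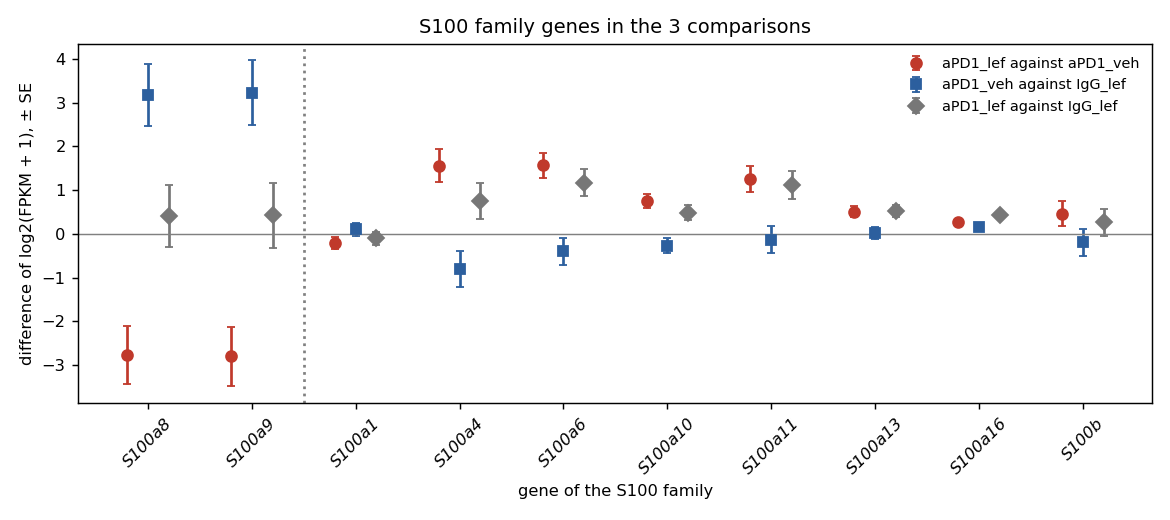
Differences of log2(FPKM + 1) ± SE for S100 genes that passed the filter, with S100a8 and S100a9 left of the dotted line. In aPD1_lef against aPD1_veh, S100a8 (-2.77) and S100a9 (-2.80) lie below 0 and S100a4 (1.56), S100a6 (1.57), S100a10, S100a11, S100a13 and S100a16 above it.

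Around Lcn2 and Retnlg, 6 of 9 listed genes were tested, namely lipocalin receptor, acute phase and other resistin family genes. In aPD1_lef against aPD1_veh, 1 rose and 1 fell, beside 18.2% and 14.3% of all genes tested. Slc22a17, described in mouse as a receptor for Lcn2, was at 2.17, 1.65, 1.27 and 1.78 FPKM in aPD1_lef and 0.869, 0.931, 0.867 and 0.906 FPKM in aPD1_veh (log2 difference 0.51 ± 0.14 SE, limma adjusted p = 0.0210), a call lost without aPD1_lef replicate 1 or aPD1_veh replicate 4 and under quantile normalization (limma adjusted p 0.0502 to 0.0523). With all aPD1_veh values below 1 FPKM, Slc22a17 could not pass the filter without aPD1_lef, the group where it was high. It was thus favoured to differ if kept, and its rise is given as a description. Retnla, a resistin-like protein of alternatively activated macrophages, was at 1.75, 0.391, 0.242 and 0.171 FPKM in aPD1_lef and 1.21, 4.51, 4.11 and 1.54 FPKM in aPD1_veh (log2 difference -1.21 ± 0.36 SE, limma adjusted p = 0.0278). The Retnla call was lost without aPD1_lef replicate 3 or 4 or aPD1_veh replicate 2 or 3, and with no filter (limma adjusted p 0.0516 to 0.0798). In aPD1_lef against IgG_lef Retnla did not pass (limma adjusted p = 0.0541), but passed in some alternatives, among them without the libraries with Myl7 above 10 FPKM (0.0469).

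The acute phase gene Saa3 was at 0.0595, 0.133, 0.192 and 24.3 FPKM in aPD1_lef, at 2.01, 0.691, 2.77 and 0.871 FPKM in aPD1_veh, and at 0.0509, 0.199 and 15.7 FPKM in IgG_lef, so that aPD1_lef replicate 4 and IgG_lef replicate 3 again led their groups. Retn was at most 0.368 FPKM in aPD1_lef, 0.286 FPKM in aPD1_veh and 0.364 FPKM in IgG_lef. In aPD1_veh against IgG_lef and aPD1_lef against IgG_lef, 0 of these 6 genes passed (limma, with 2 at an unadjusted p under 0.05 in each).

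Over all 10 lists, 64 of 109 genes in the table were tested. In aPD1_lef against aPD1_veh 11 rose and 5 fell, or 25.0%, beside 32.4% of all genes. In aPD1_veh against IgG_lef 3 rose and 0 fell, or 4.69%, beside 1.17% of all genes, and in aPD1_lef against IgG_lef 4 rose and 0 fell, or 6.25%, beside 7.16%.

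The 8 genes outside the list whose pattern was most like the mean of S100a8 and S100a9 on log2(FPKM + 1) over the 11 libraries were Mmp9, Ppbp, Wfdc21, Rheb, Ppp2ca, Ubac2, Ybx3 and Cited2, with Pearson r between 0.906 and 0.951. These libraries fall into the 3 groups, so r describes the shared order of libraries and is no test. Genes picked for following the alarmins are bound to differ between groups as the alarmins do, so no test of them follows from this choice. Measured the same way, the other genes of the list had r of 0.946 for Retnlg, 0.920 for Cxcr2, 0.884 for Csf3r, 0.826 for Il1b, 0.510 for Lcn2 and 0.306 for Il1r2.

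Markers of other cells moved with these groups. All 5 tested erythroid markers of 7 fell in aPD1_lef against aPD1_veh, beside 14.3% of all genes tested. Summed levels of the erythroid markers were 3598 to 4202 FPKM in aPD1_lef, 7809 to 12906 FPKM in aPD1_veh and 2435 to 11914 FPKM in IgG_lef. Hbb-bs, an adult beta globin chain of red cells, was at 1172, 1285, 1353 and 1192 FPKM in aPD1_lef, 3725, 2686, 4577 and 4374 FPKM in aPD1_veh, and 2452, 3962 and 849 FPKM in IgG_lef (log2 difference -1.59 ± 0.38 SE for aPD1_lef against aPD1_veh, limma adjusted p = 0.0118). Alas2, the heme synthesis enzyme of red cell precursors, fell by 1.89 ± 0.40 (limma adjusted p = 0.00688). The summed alarmins did not track globin in each library: aPD1_lef replicate 4 had 43.1 FPKM of S100a8 and S100a9 at low Hbb-bs. IgG_lef replicates 1 and 2 had sums of 2.49 and 3.57 FPKM at Hbb-bs of 2452 and 3962 FPKM. The part of blood content in the alarmin differences was not tested.

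**Figure D5:**
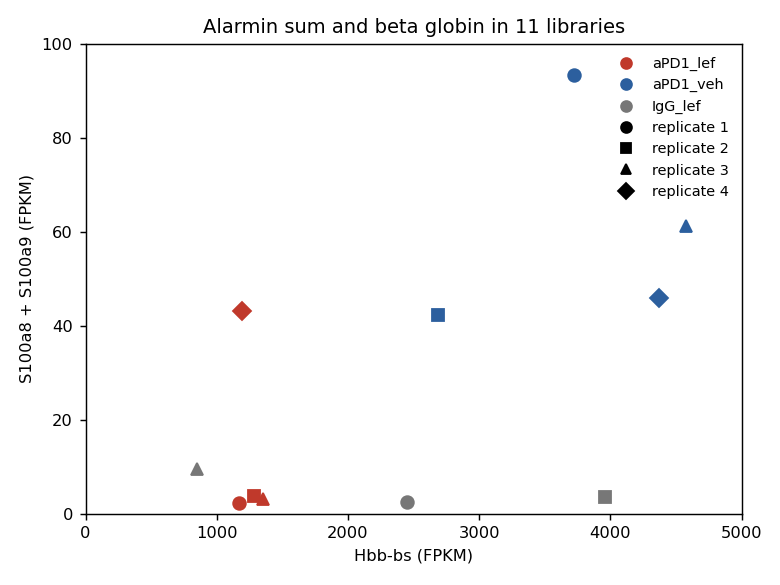
Summed FPKM of S100a8 and S100a9 (vertical) against FPKM of Hbb-bs (horizontal) in 11 libraries, coloured by group with shape for the replicate number. The aPD1_veh libraries are high on both axes, and aPD1_lef replicates 1 to 3 are low on both. That order is broken by aPD1_lef replicate 4 (43.1 FPKM of alarmins) and by IgG_lef replicates 1 (2.49 FPKM) and 2 (3.57 FPKM).

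Monocyte and macrophage markers, all 11 tested, gave 1 gene higher in aPD1_lef against aPD1_veh and 1 lower in aPD1_veh against IgG_lef, in both cases Fcgr1, a high-affinity Fc receptor (log2 difference 1.17 ± 0.28 and -1.76 ± 0.31 SE, limma adjusted p = 0.0124 and 0.0222). Lyz2, lysozyme of neutrophils and macrophages alike, was at 211, 260.4, 267 and 373 FPKM in aPD1_lef, at 255, 284, 366 and 176 FPKM in aPD1_veh, and at 235, 163 and 487 FPKM in IgG_lef (limma adjusted p = 0.906 for aPD1_lef against aPD1_veh). Adgre1, which encodes F4/80, did not pass (limma adjusted p = 0.147). Of the 11 markers, 10 were highest of aPD1_lef in replicate 4 and 10 highest of IgG_lef in replicate 3, the libraries that led the alarmins. Their summed level ran between 379 and 703 FPKM in aPD1_lef, between 276 and 585 FPKM in aPD1_veh and between 306 and 863 FPKM in IgG_lef, and their part in the result was not tested.

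Fibroblast markers rose in 6 of 6 tested genes in aPD1_lef against aPD1_veh, beside 18.2% of all genes tested. Their sums were 1064 to 1956 FPKM in aPD1_lef, 372 to 545 FPKM in aPD1_veh and 602 to 914 FPKM in IgG_lef. Cardiac muscle markers fell in 3 of 7 genes, beside 14.3% of all genes tested. Their sums were 8137 to 23538 FPKM in aPD1_lef, 23391 to 31973 FPKM in aPD1_veh and 24005 to 27225 FPKM in IgG_lef. Of platelet markers 0 of 4 tested passed, Pf4 included (limma adjusted p = 0.298, with 0 of 4 at an unadjusted p under 0.05), and the sum reached 71.2 FPKM in aPD1_lef replicate 4, against 30.9 to 35.6 FPKM in the other aPD1_lef libraries. Endothelial markers gave 0 of 5, atrial muscle 0 of 2, adipocytes 0 of 1, mast cells, basophils and eosinophils 0 of 1, and epithelial and mesothelial cells 1 of 3, which was Krt18 and rose (limma, with 1, 0, 0, 0 and 1 at an unadjusted p under 0.05). No marker of T and NK cells (sums of 1.70 to 3.38 FPKM in aPD1_lef, 1.51 to 2.49 FPKM in aPD1_veh and 1.47 to 3.43 FPKM in IgG_lef) or of B cells was high enough to test.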

How the data were processed

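TRIzol and a NEBNext Ultra kit were used for total RNA and libraries of mouse heart, per the labels' protocols. No source used here states the unit of the deposited table. It was read as FPKM computed by the authors, because the values are not whole, library totals differ and low values fall with gene length. The submitters' processing notes list HISAT2, DESeq2 and mm10, with no roles or versions. Of the table's 12 value columns, 11 matched a label and 1 did not and was left out, so 1 IgG_lef sample was not analysed here.

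The 12005 genes that reached 1 FPKM in 4 or more libraries were tested. limma 3.58.1 in R 4.3.3 (with statmod 1.5.0; linear fit, moderated with a trend and robustly) was run on log2(FPKM + 1) of the 11 libraries with the 3 groups as the only term. P-values were adjusted by Benjamini-Hochberg within a comparison, with a threshold of 0.05. Log2 changes understate those of genes near 1 FPKM. Without read counts, intervals for counting error cannot be given. The fit was tested on simulated data.

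The 8 genes, the 10 lists of pathway genes, the 12 lists of cell markers and the motifs were chosen with earlier results of these data known. Named were the 8 genes, a set of genes fixed by name, up to 3 called genes with the smallest p per list and comparison, and the 8 genes most like S100a8 and S100a9. Fcgr1, Krt18, Stfa2l1, Padi4 and Chil3 were named after their values were seen. Of the genes fixed by name, 1 is not reported here. Alternatives were other scalings, a pseudocount of 0.1, no filter, limma without trend, only the groups compared, a replicate block, each library left out and the libraries with Myl7 above 10 FPKM left out. Promoters and coordinates are from RefSeq on GRCm38.p6. Python 3.11.15 with pandas 2.3.3 and matplotlib 3.10.9 made the tables and figures.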

Additional observations from a re-analysis of the deposited data

Results flagged for a closer look

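Within groups of 4, a library was set apart where its gap to the nearest other library as a share of the group's whole range exceeded Dixon's 95% critical value. For normal values chance flags about 1 in 20 such groups, but FPKM near 0 need not be normal and the genes share libraries. The count of flags is therefore not read against that rate. Of 127 gene and group pairs, 23 exceeded the critical value, and 17 of them lay in aPD1_lef replicate 4. The values in that library were 19.1 FPKM for S100a8, 24.0 for S100a9, 1.20 for Cxcr2, 7.53 for Il1r2 and 249.1 for Lcn2 among the 8 genes. Among chemokines and growth factors they were 4.34 FPKM for Cxcl2, 3.91 for Cxcl5 and 0.159 for Csf3. Among the interleukin 1 family they were 19.1 FPKM for Il1r1, 4.20 for Il1rap and 2.21 for Il1rn. The others were 42.0 FPKM for Cd14, 0.227 for Cd177, 28.8 for Cited2, 1.11 for Mmp8, 67.1 for Pf4 and 24.3 for Saa3.

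In aPD1_veh, replicate 1 was set apart for Csf3r at 3.04 FPKM, Cxcr2 at 1.11 FPKM and Camp at 0.889 FPKM, and replicate 3 for Nfkb1 at 12.97 FPKM. In aPD1_lef, replicate 1 was set apart for Retnla at 1.75 FPKM and replicate 3 for Tlr2 at 5.05 FPKM. Groups of 3 libraries were not examined in this way.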

How the results depend on the processing

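The unit is inferred, read depth is unknown and groups hold 3 or 4 libraries, so low genes such as Cxcr2, Il1r2 and Ly6g are known only as values. In aPD1_lef against aPD1_veh, 3892 genes were called (2181 higher, 1711 lower), 4595 with every library scaled to one total (3480 higher, 1115 lower; the median of all genes moved to 0.17), 4107 with median-ratio scaling (1901 higher, 2206 lower) and 3989 with quantile normalization (1784 higher, 2205 lower). The 3 called of the 8 genes became 0 without the libraries with Myl7 above 10 FPKM. In aPD1_veh against IgG_lef, the 140 genes called became 92 with no filter and 405 with only the 2 groups in the fit. The 3 listed genes called there became 0 with one total, 1 with no filter, 6 with only 2 groups and 1 without the Myl7 libraries, and the 1 of the 8 genes became 0 with no filter, 3 with only 2 groups and 0 without the Myl7 libraries. In aPD1_lef against IgG_lef, the 859 genes called became 277 with no filter, 0 with only 2 groups (2670 at an unadjusted p under 0.05) and 2081 without the Myl7 libraries, and the 4 listed genes became 1 with no filter and 0 with only 2 groups. Same-numbered libraries did not deviate together (r between -0.29 and 0.194), so the numbers pair nothing; with a replicate block 3602 genes were called in aPD1_lef against aPD1_veh (S100a16 no longer, adjusted p = 0.0644, and Tlr2 now, 0.0179) and 0 in both other comparisons (1494 and 2830 at an unadjusted p under 0.05), with 0 listed genes and 0 of the 8 there. Leaving out one library gave 2379 to 4264, 3 to 482 and 2 to 2276 genes called in the 3 comparisons, 12 to 18, 0 to 7 and 0 to 9 listed genes, and 2 to 5, 0 to 4 and 0 to 1 of the 8. The cause of these changes was not tested. Of 2727 recomputed gene differences, 71 changed sign, each without a call in either fit.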
